A study of Homo sapiens with 18 samples.

Results

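The aryl hydrocarbon receptor (AhR) axis was followed through 6 genes, taken by symbol out of the 62649 gene IDs of the count files: the receptor AHR, its partner ARNT, the repressors AHRR and TIPARP, and the monooxygenases CYP1A1 and CYP1B1. All 6 were found and all 6 passed the filter on low counts in both lines. The study measured mRNA in A549 cells, which derive from a lung carcinoma and have alveolar features, and in BEAS-2B, an immortalised bronchial epithelial line, each grown on inserts at the air-liquid interface, where cells meet the aerosol directly. Wild-type cells of both lines were exposed for 4 h to clean air, to complete smoke from wood, or to such smoke after filtering. There were 18 libraries, 3 for each line and exposure. A549 cells had been kept in RPMI 1640 with serum and BEAS-2B cells in keratinocyte growth medium, and 400000 or 500000 cells per insert were plated 24 h ahead of the exposure. Each line is a single cell line, the labels do not say what the filter took out, and the title of the study asks about carbonyls in the gas phase.

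AhR is a ligand-activated transcription factor of the bHLH-PAS family that waits in the cytosol in a complex with HSP90 and PTGES3. Polycyclic aromatic hydrocarbons, which form when wood or tobacco burns incompletely, bind it, and it then moves to the nucleus, pairs with ARNT and binds DNA at sites with the core GCGTG. In airway epithelium its best known targets are CYP1A1 and CYP1B1, which oxidise those hydrocarbons, and the feedback repressors AHRR, which competes for ARNT, and TIPARP, which ADP-ribosylates the receptor.

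The bases just before the gene start are shown for the 3 members that hold the core and for AHR, the member with the steepest fall in BEAS-2B cells, which does not. They are the 250 bases upstream of the RefSeq start in GRCh38.p14, 5′ to 3′ on the strand of the gene, with GCGTG and its reverse complement CACGC in capitals.
CYP1A1 (chr15:74725529-74725778, minus strand): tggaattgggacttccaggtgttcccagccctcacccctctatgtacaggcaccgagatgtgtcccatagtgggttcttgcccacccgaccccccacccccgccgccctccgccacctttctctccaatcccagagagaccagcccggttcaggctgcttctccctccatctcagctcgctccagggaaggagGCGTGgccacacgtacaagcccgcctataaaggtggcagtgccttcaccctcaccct
TIPARP (chr3:156674340-156674589, plus strand): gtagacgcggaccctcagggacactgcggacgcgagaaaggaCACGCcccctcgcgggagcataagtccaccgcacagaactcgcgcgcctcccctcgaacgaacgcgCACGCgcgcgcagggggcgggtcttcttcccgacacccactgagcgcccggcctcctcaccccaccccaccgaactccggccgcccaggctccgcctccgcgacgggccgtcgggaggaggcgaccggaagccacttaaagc
AHRR (chr5:321464-321713, plus strand): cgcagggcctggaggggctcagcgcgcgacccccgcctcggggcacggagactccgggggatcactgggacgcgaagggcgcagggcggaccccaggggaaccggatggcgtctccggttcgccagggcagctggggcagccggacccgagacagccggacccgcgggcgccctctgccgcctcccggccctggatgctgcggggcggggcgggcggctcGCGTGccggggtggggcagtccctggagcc
AHR (chr7:17298402-17298651, plus strand): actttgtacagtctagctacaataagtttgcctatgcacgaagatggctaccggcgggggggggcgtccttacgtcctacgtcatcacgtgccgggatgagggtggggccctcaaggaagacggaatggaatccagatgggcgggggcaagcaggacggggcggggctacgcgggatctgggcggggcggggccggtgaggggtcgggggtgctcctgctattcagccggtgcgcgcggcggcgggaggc
The CYP1A1 window held 1 match, whose first base lay at position -57 from the start. The TIPARP window held 2, both on the reverse strand, beginning at positions -208 and -142. The AHRR window held 1, beginning at position -30, and there the longer form TNGCGTG matched too; it contains the core. The AHR and ARNT windows held none. Of 35116 promoter windows of the same length in the table, 32.2% held GCGTG on either strand and 4.52% held TNGCGTG, so a match is common and was read only as a feature of the letters. CYP1B1 is named without a window.

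Gene reads per library ran from 14.4 M to 21.4 M in A549 cells and from 28.5 M to 55.0 M in BEAS-2B cells. Levels are CPM, gene counts per 1e6 of library totals scaled by TMM over all 18 libraries, and differences are log2 values ± SE from edgeR's quasi-likelihood test, called where the Benjamini-Hochberg adjusted p over all genes tested was under 0.05. Scaled by library size alone, the median difference of all genes from clean air became -0.75 and -0.74 for complete and filtered smoke in BEAS-2B cells and -0.10 and -0.15 in A549 cells. All differences given are therefore relative to the bulk of the genes of the same line. Both smokes were compared with the same clean air libraries. No label ties the 3 libraries of a group to separate cultures, and the p-values then rest on a spread that may be technical. In such bulk samples fewer cells and less RNA per cell cannot be told apart. The epithelial keratins KRT8 and KRT18 were high in both lines, at least 1894 CPM in A549 and at least 961 CPM in BEAS-2B libraries. The surfactant genes SFTPA1 and SFTPB, which define alveolar type 2 cells, were at 0 in 9 and 8 of the 9 A549 libraries, whereas ABCA3 of the same cells measured 32.0 to 47.5 CPM. The basal keratin KRT5 measured 86.6 to 153 CPM in BEAS-2B and at most 0.201 CPM in A549 libraries. KRT14 of the same list measured 17.3 to 49.1 CPM in BEAS-2B and at most 0.0942 CPM in A549 libraries. The third basal marker, TP63, went the other way, with medians of 7.91 CPM in A549 and 3.11 CPM in BEAS-2B libraries. The basal sums of A549 cells given below are therefore nearly all TP63. The leukocyte markers PTPRC, CD68 and CD3E summed to at most 0.19 CPM in any library. The BEAS-2B libraries held 216 to 903 CPM of COL1A1, a collagen of fibroblasts. The other fibroblast markers were low there, COL3A1 at 0.549 to 1.13 CPM and DCN at 1.16 to 3.53 CPM. The fibroblast sums of BEAS-2B cells given below are therefore nearly all COL1A1. Summed basal markers in A549 cells were 13.3 to 17.6 CPM in clean air, 4.52 to 10.1 with filtered and 4.53 to 8.09 with complete smoke, and summed fibroblast markers in BEAS-2B cells were 484 to 906, 341 to 481 and 218 to 446 CPM. Basal markers in BEAS-2B cells summed to 124 to 152, 157 to 201 and 117 to 182 CPM in the same order. The 5 epithelial markers summed to 5071 to 6677 CPM in A549 clean air, 6972 to 13020 with filtered and 6203 to 10790 with complete smoke, and to 2251 to 5593, 6309 to 11290 and 4607 to 11750 CPM in BEAS-2B cells. With filtered smoke the epithelial sums lay above clean air in both lines. Their part in the results below was not tested.

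AHR mRNA, which encodes the receptor, fell with both smokes in BEAS-2B cells and with filtered smoke in A549 cells. The fall with filtered smoke in BEAS-2B cells was the steepest among the called falls of the 6 members. The gene (ENSG00000106546) lies on the plus strand of chromosome 7, from 17298652 to 17346147 in RefSeq on GRCh38.p14. In BEAS-2B samples 1, 2 and 3 AHR measured 69.7, 113 and 113 CPM in clean air, 17.3, 20.1 and 21.8 with filtered smoke and 30.2, 20.8 and 45.9 with complete smoke. Every smoke library lay below every clean air library. The fitted log2 difference from clean air was -2.31 ± 0.32 with filtered smoke, 4.96-fold lower (edgeR adjusted p = 0.00254), and -1.56 ± 0.31 with complete smoke, 2.96-fold lower (adjusted p = 0.0069). In A549 samples 1, 2 and 3 AHR measured 25.7, 31.6 and 34.5 CPM in clean air, 15.0, 16.7 and 25.8 with filtered smoke and 18.9, 20.5 and 27.4 with complete smoke. The number 3 sample of each smoke group reached above the lowest clean air sample, so these groups overlap. The difference with filtered smoke was -0.67 ± 0.24 (edgeR adjusted p = 0.0402). That call was lost without clean air 2 (adjusted p = 0.0958), clean air 3 (0.131), filtered 1 (0.139), filtered 2 (0.135) or complete 2 (0.0544), and with all 18 libraries in 1 fit (0.0798), while it held with the sample number as a block (-0.69, adjusted p = 0.000663). AHR shares 2373 exonic bases with the gene model AC019117.2 on the same strand, which drew 0 reads. With complete smoke the difference was -0.45 ± 0.23 (edgeR adjusted p = 0.155) and passed only with the sample number as a block (-0.46, adjusted p = 0.0101).

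Clean air levels of AHR did not overlap between the lines, 98.5 ± 24.9 CPM (SD, n = 3) in BEAS-2B against 30.6 ± 4.48 CPM in A549 cells. With filtered smoke the means were 19.7 ± 2.30 and 19.2 ± 5.83 CPM and the ranges overlapped. The lines differ in medium, number of cells and depth as well, and levels between lines were not tested. The difference between lines in the change with filtered smoke, BEAS-2B minus A549, was -1.65 ± 0.40 in log2 (edgeR adjusted p = 0.0655). It passed in 9 of 27 alternatives, the block among them (-1.60, adjusted p = 0.0011), which here pairs the BEAS-2B numbers too. Of single libraries, leaving out BEAS-2B clean air 1 (-1.84, edgeR adjusted p = 0.0345), complete 2 (-1.65, 0.0472) or complete 3 (-1.64, 0.0317) made the call, as did leaving out clean air 1 and complete 3 together (-1.84, 0.00893).

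ARNT, the partner that AhR needs to bind DNA (ENSG00000143437, minus strand of chromosome 1, 150809713 to 150876599), passed the test in no comparison. In A549 samples 1, 2 and 3 it measured 33.1, 35.4 and 34.7 CPM in clean air, 22.6, 23.7 and 34.9 with filtered smoke and 22.7, 24.0 and 34.5 with complete smoke. The number 3 smoke samples stood within the clean air range and the other 4 below it. In BEAS-2B samples ARNT measured 20.4, 30.3 and 29.1 CPM in clean air, 19.2, 25.7 and 22.5 with filtered smoke and 17.5, 21.8 and 17.95 with complete smoke. These ranges overlap as well. The 4 differences from clean air ran from -0.46 to -0.24 in log2 and none was called by edgeR (adjusted p from 0.093 to 0.338). With the sample number as a block both A549 differences passed, at -0.37 each (adjusted p = 0.0415 with complete and 0.0357 with filtered smoke). Scaled by library size alone, both BEAS-2B differences passed (-1.16 and -0.93, adjusted p = 0.0152 and 0.0288).

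AHRR, the repressor that takes up ARNT (ENSG00000063438, plus strand of chromosome 5, 321714 to 438285), rested on 4 to 28 reads per library, so its values carry wide counting error. It shares 244 exonic bases with PDCD6 on the same strand, and 20.6% of the reads at the gene were counted on the other strand, against at most 0.818% for the other 5 members. In A549 samples 1, 2 and 3 it measured 1.34, 0.428 and 0.764 CPM in clean air, 0.368, 0.189 and 0.301 with filtered smoke and 0.238, 0.291 and 0.665 with complete smoke. All filtered smoke samples lay below all clean air samples. The difference with filtered smoke was -1.54 ± 0.55 in log2 (edgeR adjusted p = 0.043). The call was lost in 6 of 9 leave-one-out fits, without clean air 1 (-1.05, adjusted p = 0.172), clean air 3 (0.0834), filtered 1 (0.0736), filtered 2 (0.146), filtered 3 (0.0589) or complete 2 (0.0541). It was also lost with limma-voom (adjusted p = 0.0623) and with counts that ignore strand (0.0605). With complete smoke the difference was -1.02 ± 0.52 (edgeR adjusted p = 0.143). In BEAS-2B samples AHRR measured 0.598, 0.589 and 0.704 CPM in clean air, 0.49, 0.499 and 0.417 with filtered smoke and 0.58, 0.606 and 1.03 with complete smoke. Neither difference passed (edgeR adjusted p = 0.313 and 0.562), and that with complete smoke turned from 0.25 to -0.40 when libraries were scaled by size alone. On that scale the difference with filtered smoke was called (-1.11, adjusted p = 0.0438).

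TIPARP, the repressor that modifies the receptor (ENSG00000163659, plus strand of chromosome 3, 156674590 to 156706770), was highest with complete smoke in A549 cells and lowest with filtered smoke in both lines. In A549 samples 1, 2 and 3 it measured 120, 69.3 and 81.6 CPM in clean air, 40.2, 43.0 and 68.0 with filtered smoke and 95.7, 120 and 205 with complete smoke. Filtered smoke lay below clean air and complete smoke in every library, and the clean air and complete smoke groups overlapped. The difference from clean air was 0.64 ± 0.32 with complete smoke (edgeR adjusted p = 0.138) and -0.83 ± 0.32 with filtered smoke (0.0547), and with the sample number as a block both passed (0.58 and -0.88, adjusted p = 0.0496 and 0.00554). The difference with filtered smoke was called in 9 of 18 alternatives in all. In BEAS-2B samples TIPARP measured 85.3, 131 and 107 CPM in clean air, 49.7, 70.2 and 71.6 with filtered smoke and 81.4, 78.1 and 84.9 with complete smoke. All smoke samples lay below all clean air samples, and the filtered samples lowest. The fall was called with filtered smoke (-0.75 ± 0.21, edgeR adjusted p = 0.0177) and not with complete smoke (-0.38 ± 0.21, 0.161). The first call was lost without clean air 2 (adjusted p = 0.0744), clean air 3 (0.0523) or filtered 1 (0.0589). Scaled by library size alone, the difference with complete smoke was called too (-1.07, adjusted p = 0.0197).

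CYP1A1, the monooxygenase that opens the breakdown of many polycyclic hydrocarbons, rose with complete smoke in A549 cells and fell with both smokes in BEAS-2B cells. The gene (ENSG00000140465) lies on the minus strand of chromosome 15, from 74719542 to 74725528. In A549 samples 1, 2 and 3 it measured 15.8, 0.623 and 2.7 CPM in clean air, 1.72, 3.25 and 2.46 with filtered smoke and 35.2, 45 and 117 with complete smoke. All complete smoke libraries lay above all others, and on a log scale clean air spread more widely than either smoke, with sample 1 far above samples 2 and 3. The difference of complete smoke from clean air was 3.40 ± 0.88 in log2, 10.6-fold (edgeR adjusted p = 0.0192). Without clean air 1 it was 5.34 (adjusted p = 0.00982), without complete 3 it was 2.68 (0.0248), and without clean air 3 it missed the threshold (3.05, 0.0733). The difference of filtered smoke from clean air was -1.32 ± 0.91 (edgeR adjusted p = 0.253) and turned to 0.62 without clean air 1.

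In BEAS-2B samples 1, 2 and 3 CYP1A1 measured 15.1, 12.4 and 13.1 CPM in clean air, 4.53, 4.77 and 4.53 with filtered smoke and 5.49, 4.64 and 5.07 with complete smoke. The samples of each group stood close together and every smoke library lay below every clean air library. CYP1A1 fell by 1.41 in log2 with complete smoke (SE 0.20, edgeR adjusted p = 0.00228) and by 1.57 with filtered smoke (SE 0.20, adjusted p = 0.00231), 2.66-fold and 2.96-fold lower. With all 18 libraries in 1 fit, where the A549 clean air spread enters, these gave adjusted p = 0.0877 and 0.0596. Ordered by mean, CYP1A1 stood at 2.48 ± 0.767 CPM (SD, n = 3) in A549 filtered, 4.61 ± 0.136 in BEAS-2B filtered, 5.06 ± 0.428 in BEAS-2B complete, 6.36 ± 8.21 in A549 clean air, 13.6 ± 1.39 in BEAS-2B clean air and 65.7 ± 44.7 in A549 complete smoke. Of neighbours in that order, only A549 and BEAS-2B filtered smoke, and BEAS-2B clean air and A549 complete smoke, did not overlap.

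**Figure D1:**
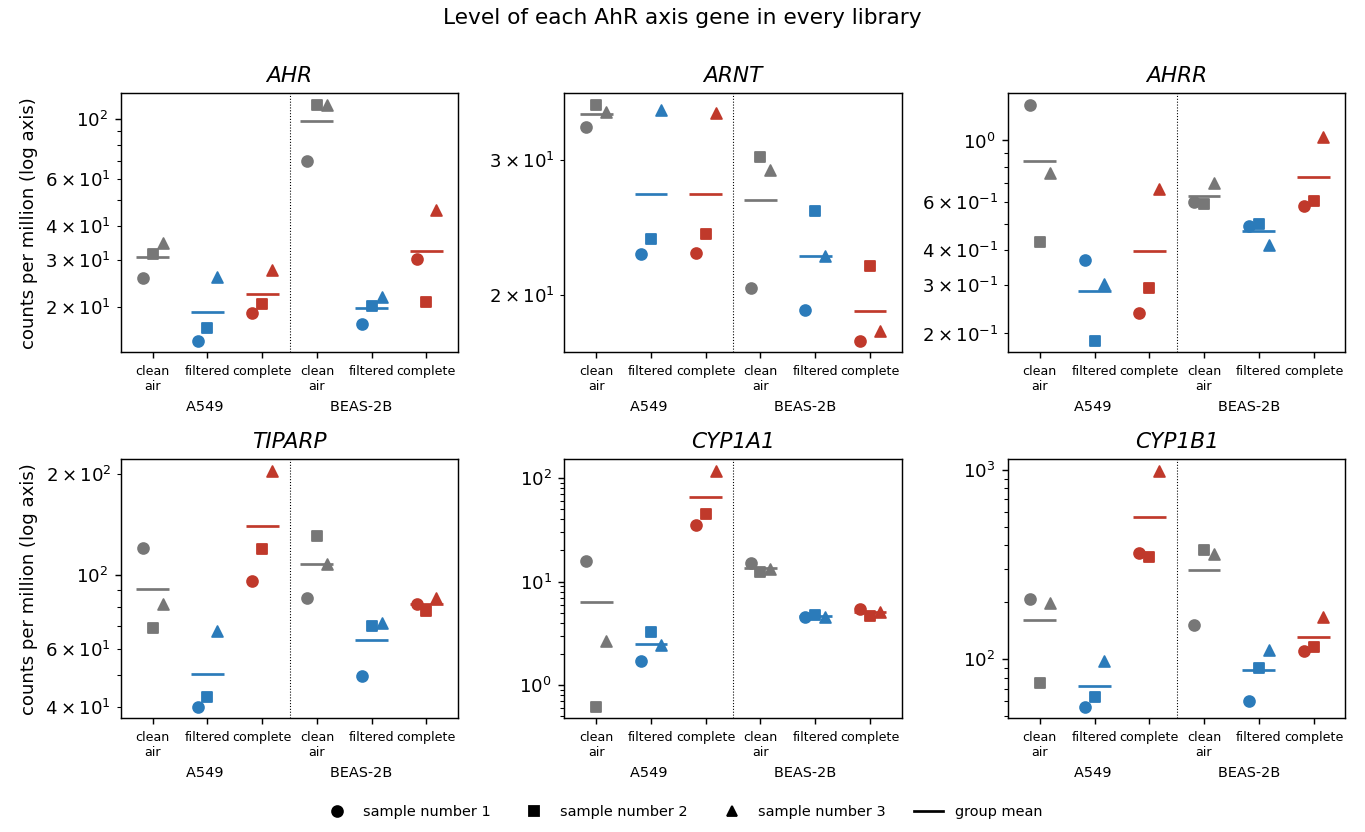
Level in CPM (log axis, a scale for each gene) of the 6 genes in the 18 libraries, by line and exposure; symbols give the sample number and bars the group mean. In A549 cells CYP1A1 with complete smoke (35.2 to 117 CPM) lies above all other libraries, and in BEAS-2B cells AHR with either smoke (17.3 to 45.9 CPM) lies below clean air (69.7 to 113 CPM).

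CYP1B1, the related monooxygenase (ENSG00000138061, minus strand of chromosome 2, 38067509 to 38076151), rose with complete smoke in A549 cells and fell with both smokes in BEAS-2B cells, as CYP1A1 did. In A549 samples 1, 2 and 3 it measured 207, 75.0 and 200 CPM in clean air, 56.4, 63.5 and 97.5 with filtered smoke and 365, 348 and 989 with complete smoke. Complete smoke lay above all other libraries, while filtered smoke overlapped clean air through the low clean air sample 2. The rise with complete smoke was 1.83 ± 0.48 in log2, 3.55-fold (edgeR adjusted p = 0.0203), and was 1.15 without complete 3 (adjusted p = 0.0334) and not called without clean air 2 (1.48, 0.0643). The difference with filtered smoke was -1.15 ± 0.48 (edgeR adjusted p = 0.071) and was called with the sample number as a block (-1.08, adjusted p = 0.00384). In BEAS-2B samples CYP1B1 measured 152, 380 and 360 CPM in clean air, 60.5, 90.1 and 113 with filtered smoke and 110, 116 and 167 with complete smoke. All filtered samples lay below clean air, and complete sample 3 stood above clean air sample 1. CYP1B1 fell by 1.74 in log2 with filtered smoke (SE 0.37, edgeR adjusted p = 0.00762) and by 1.14 with complete smoke (SE 0.36, adjusted p = 0.0331). The second call was lost without clean air 2 (adjusted p = 0.114), clean air 3 (0.105), filtered 2 (0.0544), complete 1 (0.0993) or complete 2 (0.11). CYP1B1 shares 678 exonic bases with the antisense gene CYP1B1-AS1, and the counts that ignore strand held 84.9% of the stranded count.

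Per kilobase of exon (the union of exons in GENCODE release 29), the clean air levels ran from AHRR, at 0.11 CPM in A549 and 0.0821 in BEAS-2B cells, to CYP1B1, at 26.7 and 49.5. Between them stood CYP1A1 at 1.85 and 3.95, AHR at 3.78 and 12.2, ARNT at 5.28 and 4.08 and TIPARP at 17.9 and 21.3 CPM per kilobase. CYP1B1 exceeded CYP1A1 per kilobase in all 18 libraries. The ratio of these levels was 5.93, 4.42 and 4.82 in A549 samples 1, 2 and 3 with complete smoke, 18.75, 11.15 and 22.7 with filtered smoke and 7.51, 68.8 and 42.2 in clean air. In A549 cells it was thus lowest with complete smoke, and in BEAS-2B cells it lay between 5.76 and 18.8 with all exposure groups overlapping.

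Counted over the 6 members, 2 rose with complete smoke in A549 cells, CYP1A1 and CYP1B1, and none fell, where 15.6% of 15244 genes tested were called higher and 32.5% in either direction. Blocking on the sample number, 5 members were called, 3 higher and 2 lower. That fit called 8321 of the 15244 genes, 4159 higher and 4162 lower. Every complete smoke library lay above every clean air library for CYP1A1 and CYP1B1, as for 24.5% of genes. With filtered smoke in A549 cells 2 members fell, AHRR and AHR, against 23.5% of genes called lower and 46.7% in either direction. With the block 5 were called, all lower, where 4765 of 15244 genes were called lower and 9406 in either direction. TIPARP and AHRR lay wholly below clean air there, as did 30.2% of genes. In BEAS-2B cells 3 members fell with complete smoke, CYP1A1, CYP1B1 and AHR, against 19.5% of 16356 genes called lower and 41.0% in either direction, and 3, CYP1A1, TIPARP and AHR, lay wholly below clean air, against 24.7%. With filtered smoke 4 fell there, CYP1A1, CYP1B1, TIPARP and AHR, against 24.9% called lower and 48.6% in either direction, and 5 lay wholly below clean air, against 30.6%. The median difference of the 6 members from clean air was 0.15 with complete and -0.99 with filtered smoke in A549 cells and -0.80 and -1.16 in BEAS-2B cells. The medians over all genes tested were 0.02 and 0.01 in A549 cells and -0.06 and -0.07 in BEAS-2B cells. Higher calls were 47.9% and 49.5% of all calls in A549 cells and 52.5% and 48.7% in BEAS-2B cells with complete and filtered smoke. Scaled by library size alone these shares were 34.7%, 37.9%, 18.3% and 18.3%. On that scale 5 members were called lower in BEAS-2B cells with complete smoke, where 6835 of 16356 genes were.

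**Figure D2:**
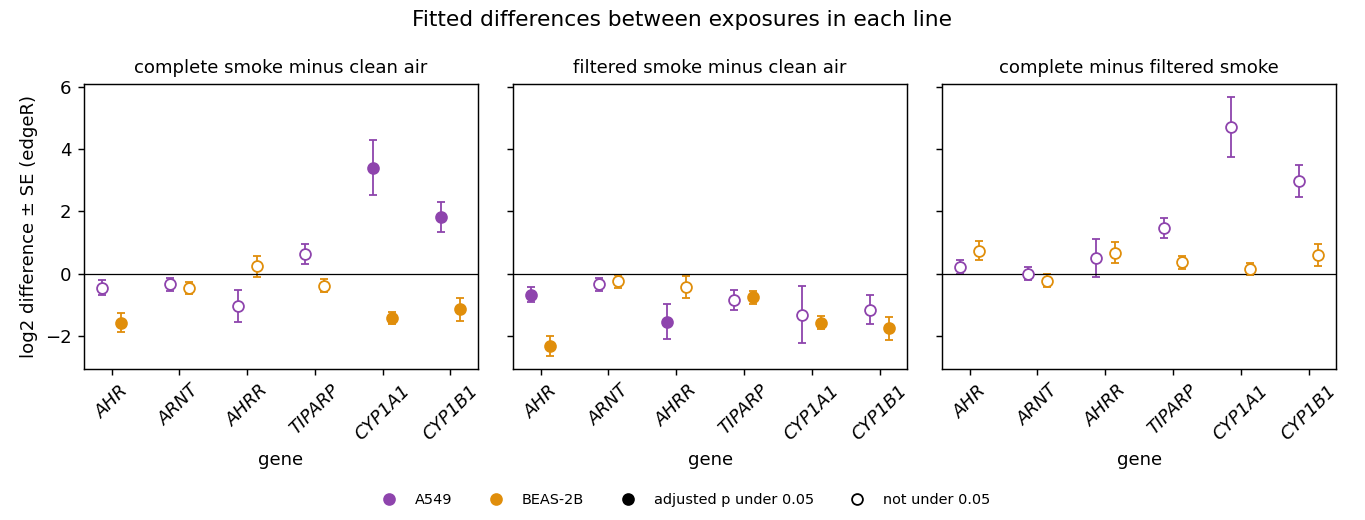
Fitted log2 difference ± SE (edgeR) for each gene in A549 (purple) and BEAS-2B cells (orange), with filled points for an adjusted p under 0.05. CYP1A1 and CYP1B1 stand above 0 with complete smoke in A549 cells (3.40 and 1.83) and below 0 in BEAS-2B cells (-1.41 and -1.14), and no point is filled for complete against filtered smoke.

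Complete against filtered smoke, edgeR called 0 of 15244 genes in A549 cells and 0 of 16356 in BEAS-2B cells. These fits ignore the sample numbers, yet same-numbered smoke pairs correlated. For numbers 1, 2 and 3 r was 0.61, 0.48 and 0.80 in A549 and 0.65, 0.29 and 0.67 in BEAS-2B cells. Fewer than a share of 0.05 of all genes stood at an unadjusted p under 0.05. The absence of calls therefore does not show that the smokes had the same effect. At an unadjusted p under 0.05 stood 3 members in A549 cells, CYP1A1, CYP1B1 and TIPARP, against 1.55% of genes. These same 3 lay wholly higher with complete smoke, against 2.39% of genes, by 26.3-fold, 7.85-fold and 2.78-fold (edgeR adjusted p = 0.998 each). By unadjusted p CYP1B1 was 1st, CYP1A1 2nd and TIPARP 7th of all genes tested. By size of the rise, among 10007 protein-coding genes with a mean of at least 5 CPM, CYP1A1 was 1st, CYP1B1 2nd and TIPARP 6th. Blocking on the sample number called CYP1B1 (2.84, adjusted p = 0.00297), 1 of 15244 genes. DESeq2's Wald test called 3 genes, CYP1B1 and CYP1A1 among them (adjusted p = 2.71e-06 and 0.034), and limma-voom called no member. With no low-count filter edgeR called 19 of 32704 genes, all 3 members among them. The log2 differences of CYP1A1, CYP1B1 and TIPARP there, 4.71, 2.97 and 1.47, were close to those of the main fit. Their edgeR adjusted p-values were far smaller (2.59e-75, 5.75e-42 and 1.03e-09) and, with 3 libraries per group, were not relied on. In BEAS-2B cells 1 member, AHR, stood at an unadjusted p under 0.05, against 1.36% of genes. Its difference was 0.75 ± 0.31 in log2 (edgeR adjusted p = 1). TIPARP and AHRR lay wholly higher there with complete smoke, against 2.60% of genes, and neither DESeq2, limma-voom nor the block called a member.

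Taken within each sample number, CYP1A1 was higher with complete than with filtered smoke by 4.30, 3.76 and 5.53 in log2 CPM in A549 samples 1, 2 and 3. CYP1B1 was higher by 2.69, 2.46 and 3.34 and TIPARP by 1.25, 1.47 and 1.59. All 9 values are positive, and the spread is narrowest for TIPARP. ARNT differed by 0.00, 0.02 and -0.01, so the 2 smokes gave nearly the same ARNT level at each number. In BEAS-2B samples CYP1A1 differed by 0.27, -0.04 and 0.16 and CYP1B1 by 0.86, 0.37 and 0.56. AHR differed there by 0.81, 0.04 and 1.07, with sample 2 near 0.

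**Figure D3:**
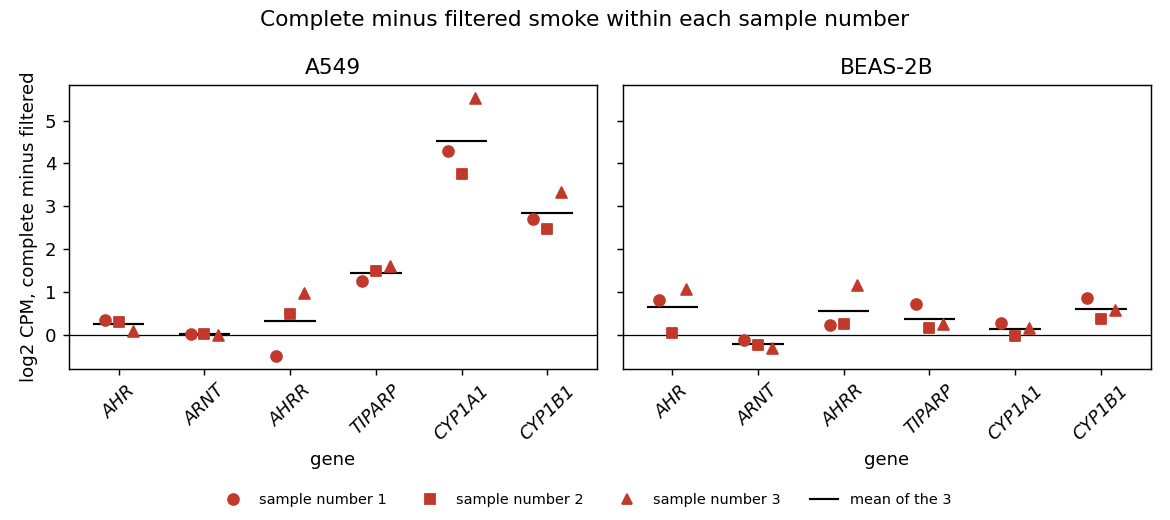
Difference in log2 CPM between complete and filtered smoke at the same sample number, in A549 (left) and BEAS-2B cells (right), with bars for the mean of the 3. In A549 cells CYP1A1 (3.76 to 5.53), CYP1B1 (2.46 to 3.34) and TIPARP (1.25 to 1.59) stand above 0 at every number, and in BEAS-2B cells CYP1A1 lies between -0.04 and 0.27.

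The test of the difference between lines, BEAS-2B minus A549, called 2 members for complete smoke against clean air, both lower, where 1.74% of 17703 genes were called and 1.17% were called lower. CYP1A1 differed by -4.80 ± 0.97 in log2 (edgeR adjusted p = 0.0217) and CYP1B1 by -3.01 ± 0.65 (adjusted p = 0.0267). The direction was shared by all 27 alternatives for each gene, and the calls depended on single libraries. CYP1A1 was not called without A549 complete 3 (-4.09, adjusted p = 0.0634), A549 clean air 3 (0.0591), BEAS-2B complete 1 (0.0546) or BEAS-2B complete 2 (0.0507), and it was -6.76 without A549 clean air 1. CYP1B1 was not called without A549 complete 3 (-2.34, adjusted p = 0.0766), A549 clean air 1 (0.0525), 2 (0.0656) or 3 (0.0505), BEAS-2B clean air 2 (0.0579) or 3 (0.0575), or BEAS-2B complete 1 (0.076) or 2 (0.0641). TIPARP differed by -1.04 ± 0.41 (edgeR adjusted p = 0.203), AHR by -1.15 ± 0.40 (0.157), AHRR by 1.26 ± 0.61 (0.3) and ARNT by -0.14 ± 0.31 (0.858). With the sample number as a block TIPARP and AHR were called too (-0.95 and -1.16, edgeR adjusted p = 0.0462 and 0.00571). This block covers both lines, so it also pairs the BEAS-2B numbers, which the main fits did not take as pairs. AHR was also called without BEAS-2B complete 3 (-1.49, edgeR adjusted p = 0.0397), without BEAS-2B clean air 1 and complete 3 together (-1.69, 0.00858) and with no low-count filter (-1.19, 0.0494), and TIPARP with scaling by library size alone (-1.61, 0.0482). For filtered smoke against clean air edgeR called 0 members, against 0.825% of genes, and 1 member, AHR, stood at an unadjusted p under 0.05, against 13.8%. The block on both lines called AHR there (adjusted p = 0.0011). DESeq2 called 1 member there, where it called 645 of 17703 genes, and limma-voom 0. For complete against filtered smoke edgeR called 0 of 17703 genes, and 3 members, CYP1A1, CYP1B1 and TIPARP, stood at an unadjusted p under 0.05, against 1.67%. DESeq2 called 1 of them, CYP1A1 (-4.56, adjusted p = 0.0288), and limma-voom 0.

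A difference by gene span ran through both lines. The 12628 protein-coding genes tested in A549 and 12870 in BEAS-2B cells that matched a RefSeq entry by symbol were split by span into 4 classes. In A549 cells the shortest class, 276 to 13053 bp, had median differences from clean air of 0.51 (complete smoke) and 0.61 (filtered smoke). The longest class had -0.53 and -0.59. In BEAS-2B cells the shortest class had 0.64 and 0.72 and the longest -0.58 and -0.74. By RefSeq span CYP1A1 (5987 bp) and CYP1B1 (8643 bp) belong to the shortest class, and their falls in BEAS-2B cells run against the median of that class. TIPARP, AHR and ARNT (32181, 47496 and 66887 bp) belong to the third, where medians were -0.15 and -0.20 in A549 and -0.30 and -0.31 in BEAS-2B cells, and AHRR (116572 bp) to the longest. Class membership depends on the annotation. The GENCODE spans of CYP1B1 (42930 bp) and AHR (429794 bp) lie within the bounds of the third and the longest class. Against the third class the falls of CYP1B1 in BEAS-2B cells have the sign of the median. Between the smokes the shortest and longest classes had medians of -0.11 and 0.05 in A549 cells. Reads outside annotated genes moved with the exposure too, at 5.68 to 6.71% of reads in A549 clean air, 2.24 to 4.46% with filtered and 2.83 to 5.62% with complete smoke, with the number 3 sample highest in each smoke group. In BEAS-2B cells they were 3.05 to 5.78%, 0.952 to 2.33% and 1.08 to 8.50%, the last value in complete 3, where 31.7% of reads mapped to several places. The part of span and of these reads in the results was not tested. Without BEAS-2B clean air 1 and complete 3 together, the falls of CYP1A1, CYP1B1 and AHR with complete smoke were all still called.

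**Figure D4:**
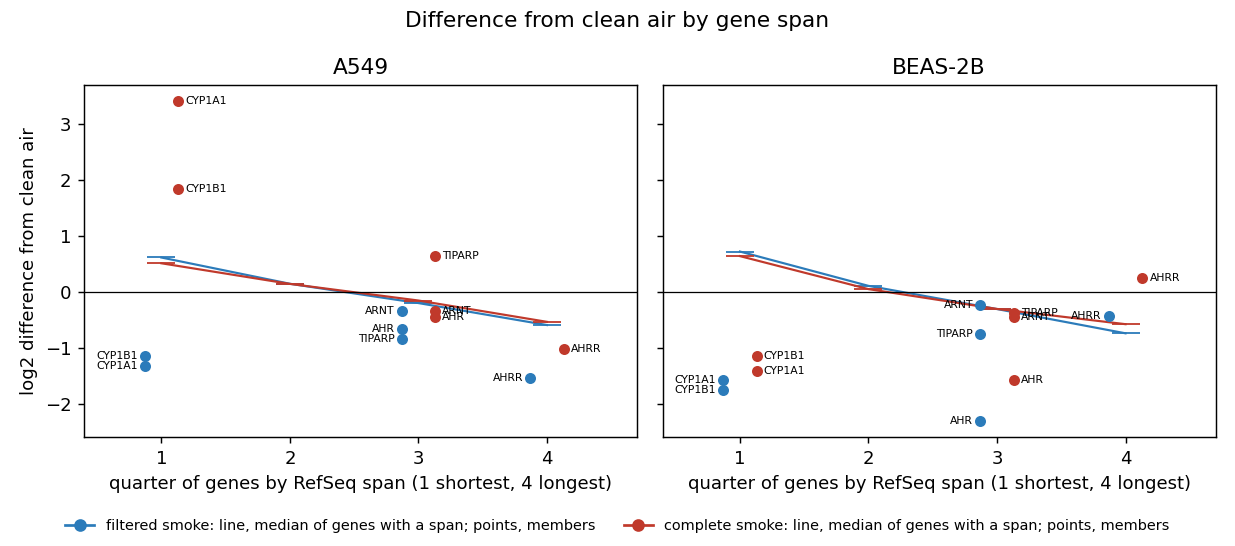
Log2 difference from clean air of the 6 genes (points) and the median of protein-coding genes with a RefSeq span (lines) in each of 4 classes of genes by RefSeq span, for filtered (blue) and complete smoke (red). The lines fall from the shortest to the longest class in both lines, and CYP1A1 and CYP1B1 lie far above them with complete smoke in A549 cells and below them in BEAS-2B cells.

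Genes around the receptor were read from 5 lists. Of the cytosolic complex that holds AhR, 3 genes were described. The chaperones HSP90AA1 and HSP90AB1 and the co-chaperone PTGES3 passed in no comparison, with log2 differences from clean air between -0.30 and 0.30. None of the 3 stood at an unadjusted edgeR p under 0.05 against clean air. Under other settings up to 2 were called lower with complete and up to 1 with filtered smoke in BEAS-2B cells. Lower calls over all genes there reached 6835 and 7415 of 16356, by library size alone.

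The coactivators and chromatin partners that AhR and many other factors use gave no higher call in either line. In A549 cells all 8 fell with complete smoke and 7 with filtered smoke, all but SMARCA4, with medians of -1.39 and -1.63, where 16.9% and 23.5% of all genes were called lower. In BEAS-2B cells 5 of 8 fell with complete and 7 with filtered smoke, with medians of -1.61 and -2.05, where 19.5% and 24.9% of all genes were called lower. NCOA2, a p160 coactivator, fell in all 4 comparisons, with log2 differences of -2.0 and -1.96 in A549 and -2.25 and -2.86 in BEAS-2B cells (complete and filtered smoke, edgeR adjusted p = 0.00431, 0.00289, 0.0228 and 0.00976). The acetyltransferase CREBBP fell likewise, with differences of -1.65 and -1.86 in A549 and -1.66 and -2.18 in BEAS-2B cells (edgeR adjusted p = 0.00291, 0.00126, 0.0299 and 0.0114). NRIP1, which can also act as a corepressor, fell in A549 cells, with differences of -1.81 and -2.08 (adjusted p = 0.0105 and 0.00388). Leaving out 1 library, the number called lower ran from 3 to 8 and stayed at 7 in A549 cells (complete and filtered smoke) and ran from 1 to 7 and from 4 to 7 in BEAS-2B cells. Of all genes, from 893 of 15605 to 3479 of 15628 and from 2161 of 15586 to 4559 of 15628 were called lower in these A549 fits. In BEAS-2B cells they ran from 1438 of 16718 to 4722 of 16918 and from 1970 of 16718 to 4850 of 16918. The 3 coactivators came without A549 complete 2, where the 893 genes were called. In BEAS-2B cells all but NCOA3 lost the call with complete smoke without clean air 2, clean air 3, complete 1 or complete 2. There NCOA1, EP300 and NRIP1 lost it with filtered smoke without clean air 2, clean air 3, filtered 1 or filtered 2.

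Of the other genes known to respond to AhR, 9 of 12 were tested in A549 and 8 of 12 in BEAS-2B cells. With complete smoke in A549 cells edgeR called none of them, with a median of 0.26, where 32.5% of all genes were called. NQO1, a quinone reductase, went from 1510 ± 110 to 1802 ± 301 CPM (edgeR adjusted p = 0.313). ALDH3A1, an aldehyde dehydrogenase, went from 1961 ± 220 to 3345 ± 925 CPM (adjusted p = 0.0562). With the block 2 were called higher and 1 lower, where 4159 and 4162 of 15244 genes were. With filtered smoke ALDH3A1 rose (0.90, edgeR adjusted p = 0.0259) and NFE2L2, the NRF2 factor, and SLC7A5, an amino acid transporter, fell (-0.68 and -0.72, adjusted p = 0.01 and 0.0297). Of all genes, 23.1% were called higher and 23.5% lower there. The ALDH3A1 rise was lost without any 1 of the 3 clean air samples and without filtered 1 or 2, and the SLC7A5 fall without clean air 1, clean air 3 or filtered 2. In BEAS-2B cells ALDH3A1 and SLC7A5 fell and SERPINB2, a protease inhibitor, rose with both smokes. Of all genes, 19.5% and 24.9% were called lower there and 21.5% and 23.6% higher (complete and filtered smoke). SERPINB2 went from 166 ± 10.9 CPM in clean air to 373 ± 67.7 (complete smoke) and 298 ± 24.6 CPM (filtered smoke), log2 differences of 1.18 and 0.84 (edgeR adjusted p = 0.00339 and 0.00955). By library size alone the filtered difference was 0.16 (adjusted p = 0.346). SLC7A5 had differences of -1.09 and -0.92 (edgeR adjusted p = 0.0164 and 0.0251). The first call was lost without clean air 2 (0.0612), and the second without clean air 2, clean air 3, filtered 2 or filtered 3 (at most 0.0844). ALDH3A1 stood at 9.75 ± 4.10, 4.08 ± 1.62 and 4.05 ± 1.61 CPM in clean air, complete and filtered smoke (adjusted p = 0.0446 and 0.0369), calls lost in 8 of 9 leave-one-out fits (all but that without filtered 3) and in 7 of 9 (all but those without complete 1 or 3).

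Of 16 other bHLH-PAS genes, 12 were tested in A549 and 13 in BEAS-2B cells. In A549 cells 7 fell and 1, the clock gene PER1, rose with each smoke. Of all genes, 16.9% (complete smoke) and 23.5% (filtered smoke) were called lower there and 15.6% and 23.1% higher. With the block the list had 2 higher and 8 lower calls with filtered smoke, where 4641 and 4765 of 15244 genes were called higher and lower. PER1 went from 7.0 ± 0.683 CPM to 24.8 ± 11.2 CPM (complete smoke) and 22.9 ± 7.72 CPM (filtered smoke), log2 differences of 1.84 and 1.72 (edgeR adjusted p = 0.00527 and 0.00403). The 7 were PER2, CLOCK, BMAL1 and NPAS2 of the circadian clock, EPAS1, a hypoxia factor, ARNT2, a close relative of ARNT, and SIM2. PER2 had differences of -1.35 and -1.41 (edgeR adjusted p = 0.00117 and 0.000727), and ARNT2 of -0.53 and -0.60 (adjusted p = 0.0145 and 0.00552). In BEAS-2B cells BMAL1 alone fell with complete smoke (-1.26, edgeR adjusted p = 0.00499), and BMAL1, CLOCK, PER3, SIM1 and SIM2 fell with filtered smoke, where 19.5% and 24.9% of all genes were called lower. In the main fit PER1 was the only gene of the 5 lists called for a difference between lines, -1.91 ± 0.41 with complete smoke (edgeR adjusted p = 0.0273). Its call was lost in 7 of 18 leave-one-out fits, those without any 1 A549 clean air sample, A549 complete 3, BEAS-2B clean air 2, or BEAS-2B complete 1 or 2. Other settings, with and without the block, called more genes of the lists, among them up to 3 coactivators lower with complete smoke. Those settings called from 191 of 18047 to 1833 of 17543 genes lower there. Leaving out 1 library, the lower calls of this list ran from 2 to 7 and 6 to 8 in A549 and from 1 to 7 and 1 to 8 in BEAS-2B cells. Lower calls over all genes in these fits are given with the coactivators. The 2 of this list came without A549 complete 2, and with filtered smoke in BEAS-2B cells only BMAL1 was called without clean air 2, clean air 3, filtered 1 or filtered 2.

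Enzymes that act on oxidised polycyclic hydrocarbons lie downstream of the CYP1 step. In A549 cells GSTM3, a glutathione transferase, rose with complete smoke, and GSTM3 and GSTP1, a relative of it, with filtered smoke, of 7 tested of 8. These are 1 and 2 of 7, where 15.6% and 23.1% of all genes were called higher. With the block 4 were called higher with each smoke, where 4159 (complete) and 4641 (filtered) of 15244 genes were. In BEAS-2B cells GSTM3 and GSTP1 rose with complete smoke and these with EPHX1, the epoxide hydrolase, and AKR1B10 with filtered smoke, while SULT1A1, a sulfotransferase, fell with both. These are 2 and 4 higher calls of 8, where 21.5% and 23.6% of all genes were called higher. GSTM3 went from 27.5 ± 6.38 CPM in BEAS-2B clean air to 88.9 ± 16.2 CPM (complete smoke) and 84.5 ± 9.23 CPM (filtered smoke), log2 differences of 1.69 and 1.60 (edgeR adjusted p = 0.00227 and 0.00282), and these calls held in all 19 alternatives. SULT1A1 measured 0.844 ± 0.0599 CPM in clean air and 0.213 ± 0.123 with complete smoke, a low level. AKR1B10, at 0.468 ± 0.0731 CPM with filtered smoke, was called in 3 of 18 alternatives, and the EPHX1 call was lost by library size alone (0.32, adjusted p = 0.211). In BEAS-2B cells the calls for GSTP1, EPHX1 and SULT1A1 were lost without clean air 2 or clean air 3. In A549 cells the GSTM3 call with complete smoke was lost without complete 2, and GSTP1 with filtered smoke without clean air 2, clean air 3, filtered 1 or filtered 2. Between the smokes edgeR called no gene of any of the 5 lists in either line. Over the 70 calls in the 5 lists the direction held in all alternatives, 67 calls held when libraries were scaled by size alone, 33 held in all leave-one-out fits and 29 in all alternatives.

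**Figure D5:**
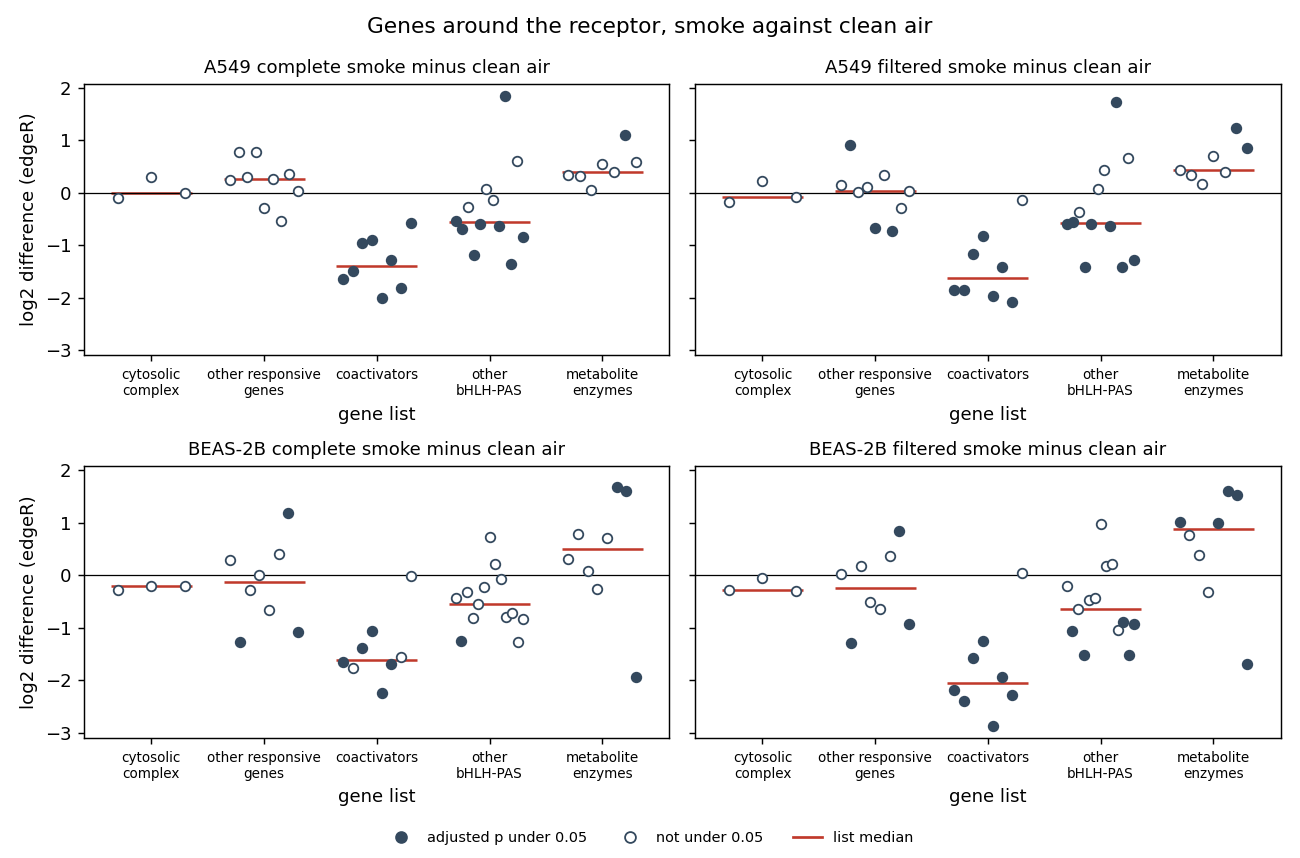
Log2 difference from clean air (edgeR) of each tested gene in 5 lists around the receptor, for both smokes and lines; filled points have an adjusted p under 0.05 and bars mark list medians. The coactivator medians lie between -2.05 and -1.39 and the medians of enzymes that act on oxidised hydrocarbons between 0.39 and 0.88.

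The likeness of other genes to the CYP1 profiles was described over the 18 libraries, as the root mean square difference of log2 CPM centred on each line, over 9902 protein-coding genes with a mean of at least 5 CPM. TIPARP was the gene nearest to CYP1B1, at 0.60 against a size of 1.10 for the CYP1B1 profile itself, and SERTAD2, STC2 and TFAP2A were among the 5 nearest, at 0.72 to 0.73. CYP1B1 was the gene nearest to CYP1A1, at 0.99 against a size of 1.75, followed by STC2 (1.28), TIPARP (1.35), AQP3 (1.4) and SECTM1 (1.43). The nearness was not mutual, since CYP1A1 stood only at place 1792 from CYP1B1, at 0.99 against the size of 1.10. AHR stood at place 565 from CYP1B1 and 2734 from CYP1A1, and ARNT at 2916 and 3604. STC2, a secreted glycoprotein, averaged 84.2, 70.1 and 216 CPM in A549 cells in clean air, filtered and complete smoke, and 1550, 1153 and 1070 CPM in BEAS-2B cells. The points share their libraries and scaling, and the measure is a description with no test.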

How the data were processed

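mRNA was sequenced in 18 libraries, 6 groups of 3 taken from the labels. The deposited values are counts of reads per gene that the authors made with STAR 2.7.10b on GRCh38, per the submitters' processing notes; the annotation is not given in the sources used here. Each file holds 3 count columns, and the 4 summary lines were left out. The labels name a TruSeq mRNA v2 kit, yet the counts of one strand were 11.7 to 17.1 times those of the other, and so the stranded column was used and counts that ignore strand became an alternative. Of 62649 gene IDs 62625 had a symbol. Promoter windows, spans and gene positions are from RefSeq (GRCh38.p14), exon lengths from GENCODE release 29. The members, gene lists and alternatives were chosen with earlier results of these data known.

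Fits used R 4.3.3 and edgeR 4.0.16 (filterByExpr, TMM, robust quasi-likelihood test) on the 9 libraries of a line, and on all 18 for the difference between lines, with Benjamini-Hochberg adjustment over all genes tested and a threshold of 0.05. SE is the log2 difference over the root of F. TMM factors ran from 0.916 to 1.09 in A549 and from 0.718 to 1.52 in BEAS-2B cells. Printed CPM used factors from all 18 libraries, and log2 CPM a prior count of 2. The fit was tested on simulated data, with changes set only in genes with many reads and a common spread for all genes. That test does not cover genes with few reads, such as AHRR, or libraries that stand apart. Alternatives were other scalings and filters, DESeq2 1.42.0, limma-voom (limma 3.58.1), counts that ignore strand, all 18 libraries in 1 fit, a replicate block and each library left out. Named genes were the 6 members, list genes that passed, all of the cytosolic complex list, and the 5 nearest to CYP1A1 and CYP1B1; NQO1 and STC2 values were added after seeing the data. A few genes that this rule or the lists would take in are not reported here. No 2 libraries held the same counts.

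The labels number the samples 1 to 3 in each group. In A549 cells the deviations of every same-numbered pair from the group means correlated (r from 0.22 to 0.80 across genes). Pairs with different numbers ran from -0.68 to 0.34, so these ranges overlap. For tests the numbers were taken as pairs in the block alternative only. Differences within a sample number are printed for both lines as a description. The main A549 fits carried no block, and their calls and p-values ignore the pairing. Block values are given where they change the call of a member or the counts of a gene list. In BEAS-2B cells r ran from -0.13 to 0.67 for same-numbered pairs and from -0.67 to 0.48 for the others. The numbers were not taken as pairs for tests there, apart from a check with the block. In fits of the difference between lines the block covered both lines, so block values there also rest on BEAS-2B pairs.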

Additional observations from a re-analysis of the deposited data

Results flagged for a closer look

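The effect of complete smoke against clean air differed between the lines for 2 of the 6 genes by the interaction test of edgeR. For CYP1A1 the difference, BEAS-2B minus A549, was -4.80 in log2 (adjusted p = 0.0217), with all 3 A549 samples higher and all 3 BEAS-2B samples lower than the clean air sample of the same number. For CYP1B1 it was -3.01 (adjusted p = 0.0267), with the same directions in 3 of 3 samples of each line. These directions by number are a description only, since the main tests did not take the numbers as pairs. Both calls depend on single libraries, as listed with the result. Groups of 3 were not tested for single samples that stand apart.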

How the results depend on the processing

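Over the alternatives, 1013 of 1143 results for single members kept their direction and side of the threshold, 56 gained a call and 38 lost one, and none that was called changed direction; 36 changed direction with no call in either fit. The number of members called among 6 was moved by these settings. For A549 complete smoke against clean air it went from 2 to 5 with the replicate block, while calls over all genes went from 4951 to 8321. For A549 filtered smoke it went from 2 to 5 with no low-count filter, 4 with DESeq2, 5 with the block, and 1 with a stricter filter, which AHRR does not pass, or with counts that ignore strand. In that order 7605 of 32704, 7644 of 15244, 9406 of 15244, 6992 of 13578 and 7149 of 15436 genes were called. For A549 complete against filtered smoke the number of members went from 0 to 3 with no filter, 2 with DESeq2 and 1 with the block. There 19 of 32704, 3 of 15244 and 1 of 15244 genes were called. For BEAS-2B complete smoke the number of members went from 3 to 5 with library size alone or the block, where 8366 and 10315 of 16356 genes were called. For the difference between lines it went from 2 to 4 with the block on both lines for complete smoke, where 3541 of 17703 genes were called. For filtered smoke it went from 0 to 1 with library size alone, no filter, DESeq2, the block, counts that ignore strand, or without BEAS-2B clean air 1 and complete 3. In that order 822 of 17703, 450 of 37637, 645 of 17703, 2742 of 17703, 149 of 18047 and 905 of 17543 genes were called. Between the smokes the number of members went from 0 to 2 with no filter and 1 with DESeq2, where 7 of 37637 and 1 of 17703 genes were called. Leaving out 1 library, the member counts ran from 1 to 4, 0 to 4 and 0 to 0 in A549 cells (complete and filtered smoke against clean air, and complete against filtered), from 2 to 4, 3 to 4 and 0 to 0 in BEAS-2B cells, and from 0 to 3, 0 to 1 and 0 to 1 for the differences between lines. Calls over all genes moved as well. With complete smoke they ran from 1422 of 15605 to 7021 of 15628 in A549 and from 2916 of 16718 to 9026 of 16918 in BEAS-2B cells. With filtered smoke they ran from 4006 of 15586 to 9015 of 15628 and from 3652 of 16718 to 9276 of 16910. For the line difference with complete smoke they ran from 87 of 18649 to 797 of 17722. In the BEAS-2B pairing check the block called TIPARP and ARNT in addition with complete smoke (adjusted p = 0.047 and 0.0104); the numbers were not taken as pairs there. The cause of these changes was not tested. Depth limits AHRR most, at 4 to 28 reads per library.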
